A study of Mus musculus with 7 samples.

Results

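The keratin genes were followed across the keratinocytes of mouse epidermis. Members were all genes of the keratinocyte table whose symbol is Krt followed by a number and at most 1 letter, which gave 47 of 26383 listed genes, 24 of them type I and 23 type II. The cells came from 2 libraries of CD45neg cells sorted from the epidermis of male CD45.2 C57BL/6 hosts, which had been lethally irradiated and given marrow of female CD45.1 C57BL/6 donors 3 weeks earlier. One library is labelled as bone marrow transplant (BMT), the other as BMT plus T cells (BMT + T cells). The T cells of the model are CD4 cells and CD8 Matahari cells, which recognise a male antigen. The design text of the series gives these T cells to the transplanted mice without exception, so the label BMT may not mean their absence, and all comparisons below are between the labels. Ages were not given in the sources used here. The keratinocytes of a library came from pooled mice, so the spread between mice is unknown. Each label is 1 library, the label and the library cannot be told apart, and no test between labels was possible. The libraries held 2836 (BMT) and 2590 (BMT + T cells) cells with 27817737 and 24959785 UMIs (unique molecular identifiers, each counting 1 captured RNA molecule), a median of 8896 and 8834 per cell, and shared 2 cell barcodes.

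Keratins form the intermediate filaments of epithelial cells. A filament is built from pairs of 1 type I (acidic) and 1 type II (basic) keratin, and which pair a keratinocyte makes marks its place in the tissue. Krt5 and Krt14 are the pair of the basal layer, where the dividing cells sit. Krt1, Krt2 and Krt10 replace them in cells that leave it. Krt6a, Krt6b, Krt16 and Krt17 are known from wounded or inflamed epidermis and from hair follicles, and Krt79 from the upper hair follicle. In mice the type I genes lie together on chromosome 11, apart from Krt18, and the type II genes on chromosome 15.

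The promoters of Krt5, a basal keratin, and of the suprabasal keratins Krt10, Krt2, Krt24 and Krt77 are shown first. They were picked, after the letters were seen, for holding TATATA or GATAAAA close to the start. Krt14, whose window lacked both there, is not shown, nor is Krt1. Each sequence below is the 100 bases before a start site, 5′ to 3′ on the strand of the gene, from RefSeq on build GRCm38.p6. The gene records of Krt10 (chr11:99385254-99397449) and Krt2 (chr15:101810689-101818956) reach further upstream than the start site shown, and that of Krt77 reaches 1 base into its window. Capitals mark TATATA or GATAAAA, which resemble the TATA box that positions the start of transcription. All 5 genes lie on the minus strand.
Krt5 (chr15:101712906-101713005): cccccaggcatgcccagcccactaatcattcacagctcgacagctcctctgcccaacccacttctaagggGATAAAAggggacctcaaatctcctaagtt
Krt10 (chr11:99389365-99389464): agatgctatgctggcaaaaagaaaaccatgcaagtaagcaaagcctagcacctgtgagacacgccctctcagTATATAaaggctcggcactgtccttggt
Krt2 (chr15:101818170-101818269): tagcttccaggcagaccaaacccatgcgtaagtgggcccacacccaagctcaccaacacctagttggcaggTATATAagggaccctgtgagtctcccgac
Krt24 (chr11:99285263-99285362): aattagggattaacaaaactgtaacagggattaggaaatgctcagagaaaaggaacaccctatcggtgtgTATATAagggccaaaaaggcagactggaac
Krt77 (chr15:101869706-101869805): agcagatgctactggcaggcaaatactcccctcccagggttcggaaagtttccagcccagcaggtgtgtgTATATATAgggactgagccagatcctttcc

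The motif TATATA, which reads the same on both strands, began 28 to 30 bases before the start in Krt10, Krt2, Krt24 and Krt77, and GATAAAA began 30 bases before that of Krt5. Within the last 40 bases before the start, TATATA was present in 5 of the 32 keratin windows of 31 keratin genes, the fifth being Krt27, against 1.14% of all 32851 windows. GATAAAA, searched on both strands and not overlapping TATATA, was there in 2 keratin windows (Krt5 and Krt78) against 0.447% of all. The motifs, like the genes shown, were chosen after the letters were seen. The motif TGANTCA, where N is any base, is wider than the AP-1 motif it resembles. It and the motif CACCC were also searched on both strands, over 250 bases. They were found in 2 and 25 of the 32 keratin windows, against 6.75% and 52.0% of all windows. Such matches are letters and not measured sites.

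Levels were very uneven over the family. Krt14 and Krt5 had more UMIs than any other gene of the table, 1615002 and 743027. Next among keratins came Krt15 with 190987, Krt10 with 170395, Krt2 with 133335 and Krt1 with 30558 UMIs. Levels are given below as summed UMIs per 10000 summed UMIs of the cells in question, and 14 keratins reached 0.1 per 10000 over all keratinocytes. These 14 are named throughout. The other 33 had 0 to 309 UMIs each, and Krt81, a hair shaft keratin, had 0, which allows up to 3. A UMI marks the 5′ end of a molecule, so levels were not divided by gene length, and values of different genes should not be read as protein amounts. Counts of close relatives are uncertain. Of the 31-base stretches of Krt6a transcripts, 49.3% also occur in Krt6b, and 18.9% of those of Krt16 occur in Krt14, while Krt10, Krt2, Krt1, Krt79, Krt24, Krt77 and Krt7 shared less than 1% with any other listed keratin.

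**Figure D1:**
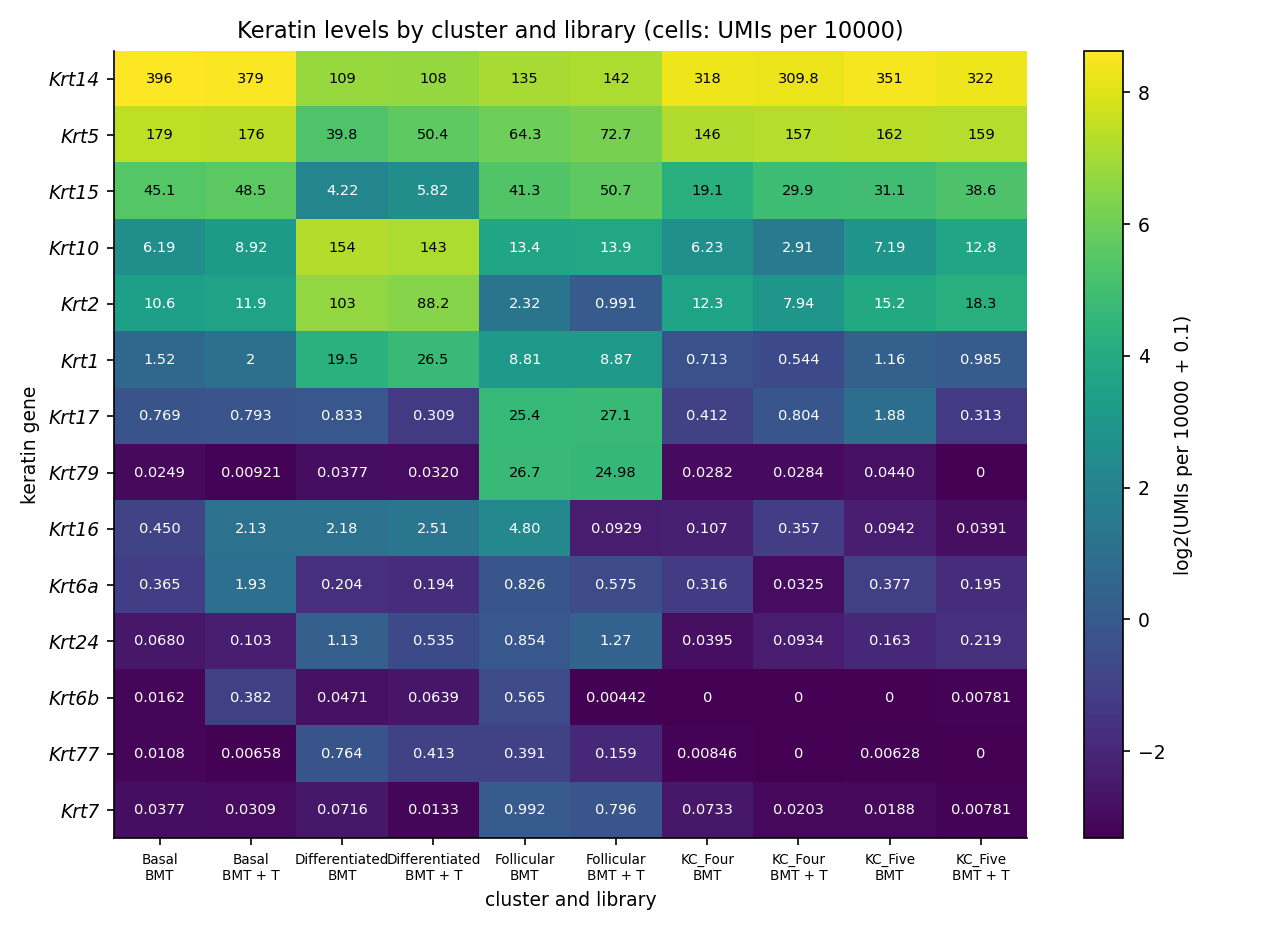
Levels of the 14 named keratins (rows) in each cluster and library (columns), with the value in UMIs per 10000 printed in each field and coloured on the scale log2(UMIs per 10000 + 0.1). Krt14 and Krt5 are high in each column, Krt10, Krt2 and Krt1 peak in Differentiated (Krt10 at 154 and 143), and Krt17 and Krt79 in Follicular.

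The 5 clusters carry the names the authors deposited: Basal (1684 and 1712 cells in BMT and BMT + T cells), Differentiated (493 and 353), Follicular (278 and 259), KC_Four (225 and 150) and KC_Five (156 and 116). They were made from these same values, so differences between clusters describe the annotation and have no test. Of the 14 named keratins, 6 were led at least 2-fold by the same cluster in both libraries, where 4.21% of all 7531 genes of that level were. Krt10, Krt2 and Krt1 were led by Differentiated (1.18% of all genes) and Krt79, Krt17 and Krt7 by Follicular (1.38%). Basal (0.0797%), KC_Four (1.50%) and KC_Five (0.0664%) led none of the keratins. Since the keratins helped to build the clusters, nothing is read from these counts. Of 7 genes known from suprabasal cells 4 were led by Differentiated, namely Krtdap, the desmosomal cadherin Dsg1a and the keratins Krt10 and Krt1. Sbsn was highest there (3.38 and 3.12) but not 2-fold over Follicular (2.08 and 1.72). Lor went the other way, with 0.113 and 0.144 in Differentiated, 0.231 and 0.227 in KC_Four and 0.188 and 0.289 in KC_Five. Flg had 6 UMIs in all. Of 6 known from the upper follicle 4 were led by Follicular, namely Cst6, Defb6, Krt79 and Krt17. None of the 7 basal markers was led 2-fold. KC_Four led Top2a and Pcna of 5 cycling genes, whose summed level was 26.1 and 27.0 there, 18.8 and 19.5 in KC_Five and 3.37 and 2.56 in Basal. Cdc20, which acts late in mitosis, was highest in KC_Five, at 8.75 and 8.63.

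Krt14 (chr11:100203162-100207510), the basal type I keratin, was present in every cluster. Its level was 396 (BMT) and 379 (BMT + T cells) in Basal, 351 and 322 in KC_Five, and 318 and 309.8 in KC_Four. Follicular had 135 and 142, and Differentiated had 109 and 108. Krt5 (chr15:101707069-101712905), its type II partner, followed the same order, with 179 and 176 in Basal, 162 and 159 in KC_Five, 146 and 157 in KC_Four, 64.3 and 72.7 in Follicular and 39.8 and 50.4 in Differentiated. The order of the clusters was the same in both libraries for both genes. The summed Krt14 UMIs were 1.95 to 2.73 times the Krt5 UMIs over the 10 combinations of cluster and library. The median Differentiated cell had a Krt14 level of 33.8 in BMT and 28.8 in BMT + T cells, below the pooled 109 and 108.

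Krt15 (chr11:100131759-100135949), a basal keratin best known from the hair follicle bulge, did not follow Krt14. Its level was 45.1 and 48.5 in Basal and 41.3 and 50.7 in Follicular, so the leading cluster differed between libraries. It was 31.1 and 38.6 in KC_Five, 19.1 and 29.9 in KC_Four and 4.22 and 5.82 in Differentiated. Among basal cells the Spearman correlation of the Krt15 and Krt14 shares was -0.385 over 1684 cells in BMT and -0.299 over 1712 in BMT + T cells. The cells of a library share its preparation, and both shares have the same denominator, so this is a description only.

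Keratins made up 6.40% and 6.33% of all UMIs in Basal, 5.70% and 5.53% in KC_Five, 5.04% and 5.10% in KC_Four, 4.35% and 4.26% in Differentiated and 3.27% and 3.44% in Follicular (BMT and BMT + T cells). The 95% exact Clopper-Pearson interval of the Basal share in BMT was 6.39 to 6.41%. Like all intervals here it covers counting error only. Single cells varied more than the libraries did, with 10th and 90th percentiles of 4.64% and 8.08% in Basal of the BMT library. Of the keratin UMIs, the 3 basal keratins held 96.8% and 95.5% in Basal and 35.1% and 38.5% in Differentiated, where the 9 suprabasal ones held 64.1% and 60.7%. In Follicular the basal keratins held 73.7% and 77.0%, and the group of stress and follicle keratins 17.9% and 15.3%.

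Krt10 is the type I keratin that takes the place of Krt14 above the basal layer. It stood at 154 and 143 in Differentiated, 11.6 and 10.3 times the next cluster, Follicular, with 13.4 and 13.9. The remaining values lay between 2.91 and 12.8. To place single cells, the share of Krt10 in the UMIs of Krt10 plus Krt14 was taken in cells with at least 10 UMIs of the pair. The median share was 83.1% and 85.0% in Differentiated and 0.597% and 0.615% in Basal. Krt10 had more UMIs than Krt14 in 337 of 493 Differentiated cells of BMT (68.4%, 95% exact interval 64.0 to 72.4) and in 238 of 353 of BMT + T cells (67.4%, 62.3 to 72.3). In Basal these were 10 of 1684 (0.594%, 0.285 to 1.09) and 23 of 1711 cells (1.34%, 0.854 to 2.01). Intermediate shares of 5 to 50% were found in 135 and 103 Differentiated cells and in 125 and 185 Basal cells.

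**Figure D2:**
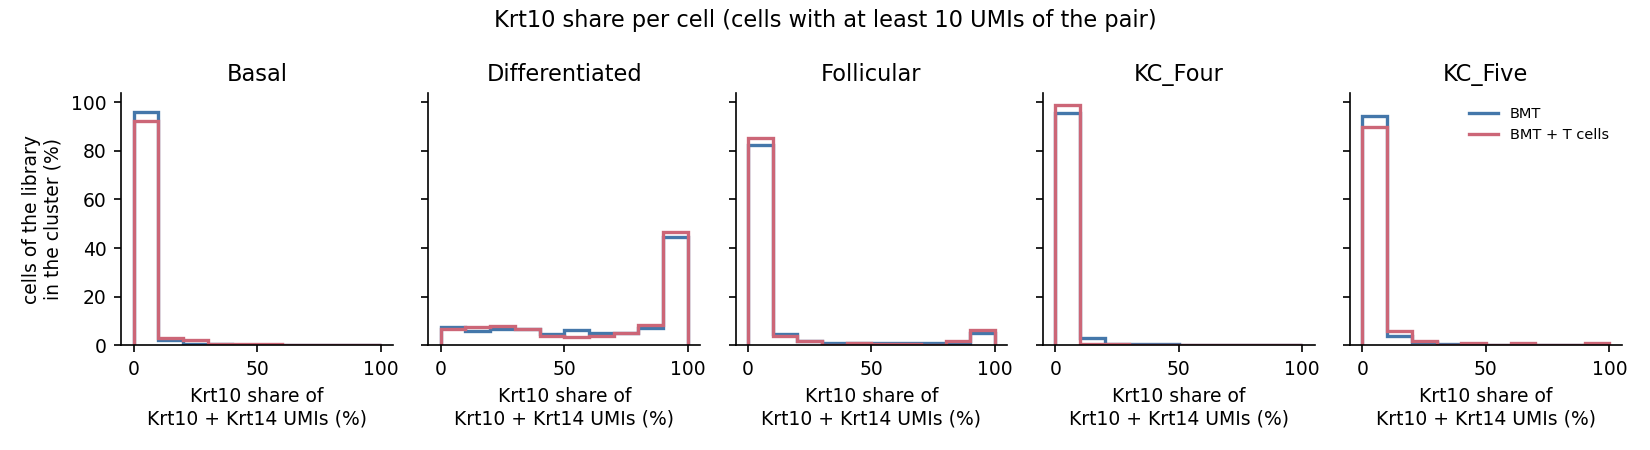
Distribution over cells of the Krt10 share of Krt10 plus Krt14 UMIs (x axis, percent, steps of 10) in the 5 clusters, as percent of the cells of each library (y axis), for cells with at least 10 UMIs of the pair. Both libraries show the same shape: most cells near 0 in Basal, KC_Four and KC_Five, a long plateau with a peak at the right in Differentiated, and a small second group at the right in Follicular.

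A low Krt10 level was measured in most basal cells. At least 1 Krt10 UMI was seen in 79.7% and 80.3% of Basal cells, or 50.3% and 52.0% when each cell was thinned to 2500 UMIs by calculation. In donor myeloid cells of the same series, which should lack keratins, 5.64 to 11.9% of cells in 4 libraries had a Krt10 UMI. Their median depths were 7022 to 13387 UMIs per cell, against 8053 and 8224 in Basal. Of these 4 libraries 1 is labelled BMT + T cells and the others BMT. Those libraries were sorted and loaded separately, so they do not measure the free RNA of the keratinocyte libraries. Within the keratinocyte libraries Krt10 was also seen in 68.7% and 64.1% of Follicular cells (42.3% and 38.3% when thinned) and in 79.3 to 85.3% of KC_Four and KC_Five cells. Krt2 was seen in 84.0% and 80.7% of Basal and in 28.4% and 24.3% of Follicular cells, whose median depths were 8070 and 7913 UMIs. How much free RNA adds to these shares was not tested.

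Krt2 and Krt1 (chr15:101845426-101850786) are the type II partners of Krt10. Krt2 had 103 and 88.2 in Differentiated, 7.94 to 18.3 in Basal, KC_Four and KC_Five, and 2.32 and 0.991 in Follicular. Krt1 had 19.5 and 26.5 in Differentiated and, unlike Krt2, its next highest level in Follicular, with 8.81 and 8.87. It was 1.52 and 2.00 in Basal, 1.16 and 0.985 in KC_Five and 0.713 and 0.544 in KC_Four. Both type II genes thus peaked in the same cluster but had different clusters in next place.

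Single cells separated these partners further. The following cut was chosen after the values were seen. Among Differentiated cells with at least 20 Krt10 UMIs, 250 of 471 (BMT) and 150 of 340 (BMT + T cells) had at least 5 Krt2 UMIs with fewer than 5 of Krt1, while 58 and 46 had the reverse, 158 and 142 had both, and 5 and 2 neither. The Spearman correlation of the Krt1 and Krt2 shares was -0.510 over these 471 cells and -0.644 over the 340. In Basal cells past the same cut it was -0.128 (110 cells) and -0.221 (178 cells).

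Follicular cells with at least 20 Krt10 UMIs numbered 36 and 30, and 26 in each library had at least 5 Krt1 UMIs, but only 2 in each had at least 5 of Krt2. Their Krt1 level was 55.4 and 58.3, against 20.01 and 26.8 in Differentiated cells past the same cut, and their Krt2 level 9.85 and 2.48 against 106 and 90.3. One of the BMT cells had 337 Krt2 UMIs. The values lay further apart where Krt10 held at least 75% of the Krt10 and Krt14 UMIs. There, 18 and 19 Follicular cells had Krt1 at 98.8 and 86.4 and Krt2 at 0.347 and 0.658, and 271 and 203 Differentiated cells had Krt1 at 23.2 and 30.2 and Krt2 at 124 and 111. Krt24, a type I keratin of which less is known, was at 9.25 and 7.56 in these Follicular and at 1.96 and 0.825 in these Differentiated cells. Few cells held it. In the whole clusters, the 5 cells with the most Krt24 UMIs held 71.3% and 54.9% of them in Follicular. In Differentiated these held 41.5% and 47.8%.

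**Figure D3:**
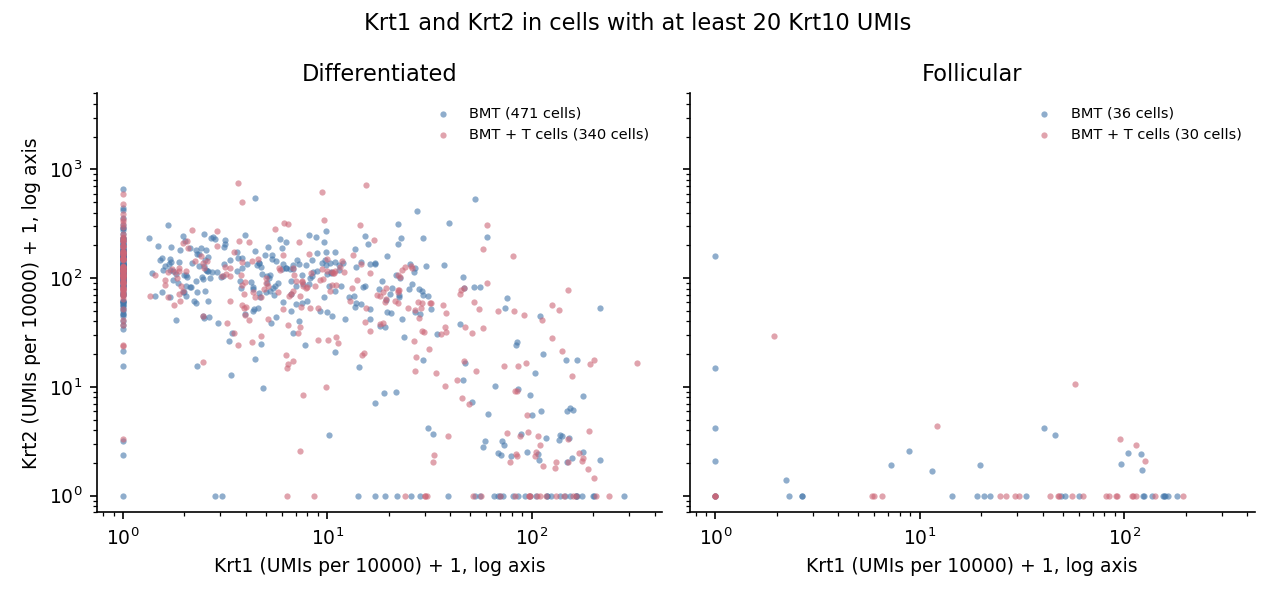
Krt1 (x axis) against Krt2 (y axis) per cell, both as UMIs per 10000 plus 1 on log axes, in Differentiated (left) and Follicular (right) cells with at least 20 Krt10 UMIs, coloured by library. Differentiated cells run from high Krt2 with no Krt1 to high Krt1 with little Krt2 (Spearman -0.510 and -0.644), and most Follicular cells lie at the bottom with Krt1 alone.

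Krt24 and Krt77 were the less abundant suprabasal keratins. Krt24 had 1.13 and 0.535 in Differentiated, 0.854 and 1.27 in Follicular and 0.0395 to 0.219 elsewhere, so the leading cluster differed between libraries. Krt77, a type II keratin known from sweat ducts and suprabasal epidermis, had 0.764 and 0.413 in Differentiated and 0.391 and 0.159 in Follicular, and 0 to 0.0108 elsewhere. The 5 cells with the most UMIs held 67.2% and 69.0% of its Differentiated UMIs. Krt78, below the minimum level over all cells, had 64 and 32 of its 109 UMIs in Differentiated, with up to 8 in a cell.

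The Follicular cluster carried its own keratins. Krt79 (chr15:101929332-101940324) had 26.7 and 24.98 there and at most 0.0440 in any other cluster of either library. It was seen in 36.7% and 34.7% of Follicular cells, in 0 to 4% of the cells of other clusters and in 0.389 to 1.11% of donor myeloid cells. Krt17 (chr11:100256215-100261029) had 25.4 and 27.1 in Follicular and 0.309 to 1.88 elsewhere. Outside Follicular it was seen in 5.67 to 15.4% of cells, against 49.3% and 56.0% inside. Krt7 (chr15:101412403-101427806), a keratin of simple and glandular epithelia, had 0.992 and 0.796 in Follicular and was seen in 27.0% and 24.7% of its cells.

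The follicular keratins were not found in the same cells throughout. Krt79 and Krt17 were both seen in 51 of 278 Follicular cells of BMT (18.3%, 95% exact interval 14.0 to 23.4) and 53 of 259 of BMT + T cells (20.5%, 15.7 to 25.9). Krt79 without Krt17 was seen in 51 and 37 cells, Krt17 without Krt79 in 86 and 92, and neither in 90 and 77. Cells with both had much Krt79 (103 and 87.9) and Krt17 (91.3 and 75.1), with Cst6, a protease inhibitor, at 314 and 171 and the defensin Defb6 at 154 and 216. Cells with Krt79 alone had Mgst1 at 37.7 and 25.9 and Scd1 at 18.9 and 16.5, both known from sebaceous glands. In cells with both keratins these were at 5.19 and 5.07 and at 0.829 and 0.807. Krt5 was lower in cells with Krt79 (32.8 and 42.3 with Krt17, 29.3 and 34.0 without) than in cells with Krt17 alone (89.9 and 97.1) or with neither (84.0 and 86.7). Krt1 was highest in cells with neither, at 18.9 and 22.2. A cell with few UMIs can miss a keratin, and the cells with neither had median depths of 6998 and 6753 UMIs against 9715 and 9237 in cells with both.

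**Figure D4:**
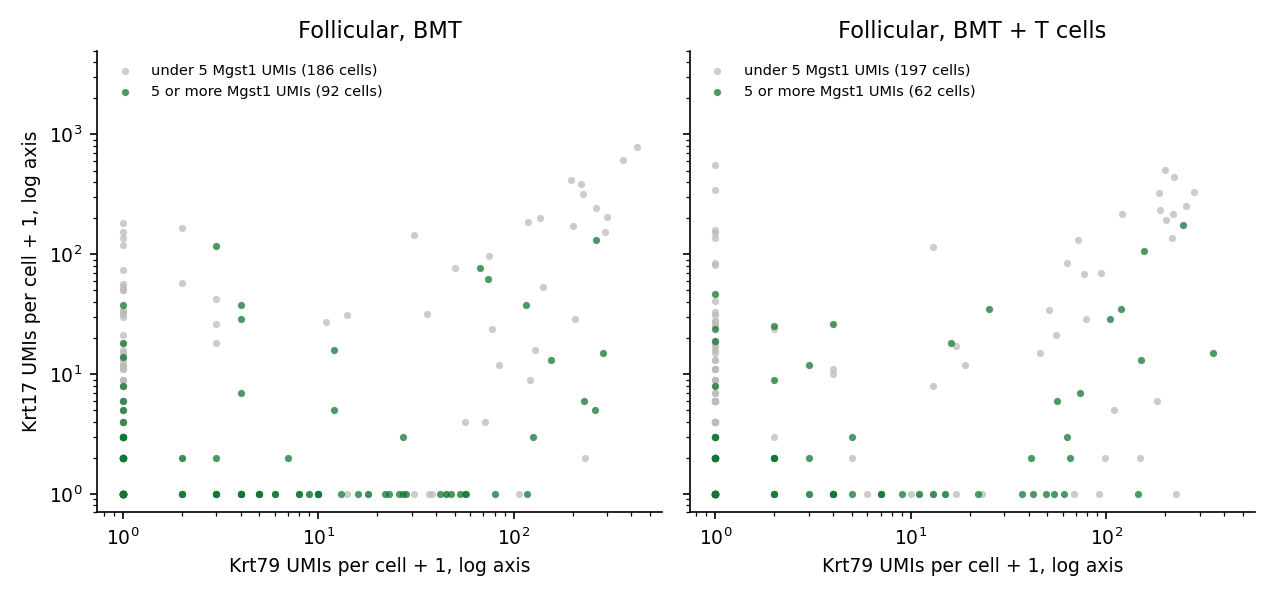
Krt79 (x axis) against Krt17 (y axis) UMIs per cell plus 1, on log axes, in the Follicular cells of BMT (left) and BMT + T cells (right), coloured by whether the cell had at least 5 Mgst1 UMIs. Among cells with Krt79 and no Krt17, 36 of 51 in BMT and 20 of 37 in BMT + T cells had that much Mgst1, against 19 of 51 and 22 of 53 with both keratins.

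Hair and simple epithelial keratins were close to 0. The 10 hair shaft keratins had 99 UMIs in all, 12 of them Krt35 in 1 KC_Four cell, a single cell with no replicate. Of the 7 inner root sheath keratins, Krt27 had 62 and 59 of its 157 UMIs in Follicular, where it was seen in 10.1% and 10.4% of cells, and Krt25 had at most 10 in a cell and no such concentration. Trichohyalin (Tchh), a main inner root sheath protein, had 1 UMI. Krt8 and Krt18, the pair of simple epithelia and Merkel cells, had 21 and 20 UMIs, with up to 9 and 12 in a single Follicular cell, while Atoh1, which defines Merkel cells, had 1 UMI and Krt20 had 7. Krt23 had 28 and 18 of its 55 UMIs in Follicular. Krt4, a keratin of inner stratified epithelia, had 7 of its 29 UMIs in 1 Basal cell.

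Markers of other cells were low. The summed level of 5 immune genes was 0.189 to 2.26 per 10000, nearly all of it Cd74, while Ptprc, which encodes CD45, had 3 UMIs. Fibroblast genes summed to 3.04 and 3.27 in Follicular, mostly Dcn, and to 0 to 0.446 elsewhere. Melanocyte genes summed to 0.877 and 1.23 in Follicular and to at most 0.0674 elsewhere, and the 2 endothelial genes to at most 0.0177 in any cluster. Their part in the Follicular keratin values was not tested.

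The comparison of labels asks whether keratins differed between the library labelled BMT + T cells and that labelled BMT. Over all keratinocytes, 2 of the 14 keratins were past 2-fold, Krt6a and Krt6b, both higher in BMT + T cells, where 0.359% of all 7531 genes were higher, 0.0664% lower and 0.425% past 2-fold in either direction. Krt77, at 0.188 and 0.0805, had a plain ratio of 0.428 (95% exact interval 0.362 to 0.504) and was not past 2-fold on the log2 ratio used for the calls, which adds 0.1 per 10000 to both levels. With 0.01 added, 3 keratins were past 2-fold, 2 higher and 1 lower. The share of all genes past 2-fold at that setting is not given, so nothing is read from this count. The log2 ratio had a median of 0.01 over the 14 keratins and 6.54e-04 over all genes. Krt14 was at 305 and 307 (95% exact interval of the ratio 1.005 to 1.01), and Krt5 at 137 and 145 (1.06, 1.06 to 1.07). Krt15 was at 32.8 and 39.9 (1.22, 1.20 to 1.23), and its ratio was above 1 in each of the 5 clusters, from 1.07 to 1.56. Krt10 (0.828) and Krt2 (0.800) were lower in BMT + T cells over all cells. The share of Differentiated cells was also lower there, 13.6% against 17.4%, and within Differentiated the ratios were 0.925 for Krt10 and 0.858 for Krt2, while that of Krt1 was 1.36. In Basal, Krt10 had a ratio of 1.44 (1.40 to 1.48).

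Cd74, the invariant chain of MHC class II, was at 0.306 and 2.24 in Basal of BMT and BMT + T cells and higher in BMT + T cells in all 5 clusters. Its part in any keratin difference was not tested.

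Within clusters, most of the keratins past 2-fold between labels were stress keratins, with Krt2 in Follicular and Krt10 in KC_Four as the exceptions. In Basal 3 of the 10 keratins of sufficient level were past 2-fold, all higher in BMT + T cells (of 7442 genes 0.484% were higher, 0.0537% lower and 0.537% either). Krt16 was at 0.450 and 2.13, Krt6a at 0.365 and 1.93 and Krt6b at 0.0162 and 0.382. In Follicular the 3 of 15 keratins past 2-fold were all lower in BMT + T cells (of 7946 genes 0.277% were higher, 0.227% lower and 0.503% either), namely Krt16 with 4.80 and 0.0929, Krt6b with 0.565 and 0.00442, and Krt2. KC_Four had 3 of 9, Krt16 higher (0.348% of genes) and Krt6a and Krt10 lower (0.125%, either direction 0.473%). Differentiated had 1 of 12 (0.185% of genes higher, 0.142% lower, 0.327% either) and KC_Five 1 of 9 (0.305% higher, 0.180% lower, 0.486% either). In both it was Krt17, lower in BMT + T cells.

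Few cells held these UMIs. Krt16 was seen in 4.22% and 4.96% of Basal cells, with intervals that overlap (3.31 to 5.29 and 3.98 to 6.10), yet 93.9% of its Basal UMIs in BMT + T cells lay in 11 cells with at least 20 each. A single Basal cell of BMT + T cells with 44307 UMIs had 1759 of Krt16, 721 of Krt6a, 529 of Krt6b and 384 of Krt17. In Follicular of BMT, 2 cells with 695 and 487 Krt16 UMIs held 97.3% of the total. The first of them also had all 143 Krt6b UMIs of these cells and 337 of their 588 Krt2 UMIs, so it enters all 3 Follicular differences. Without the 5 cells with the most UMIs of the gene in each library and cluster, an alternative chosen after seeing the data, the log2 ratio of Krt16 fell from 2.02 to 1.13 in Basal and moved from -4.67 to -0.12 in Follicular. That of Krt6a in Basal went from 2.13 to 1.66 and that of Krt6b from 2.05 to 0.06. Over all keratinocytes the values without those cells were 0.87 for Krt6a and 0.12 for Krt6b, and none was past 2-fold. The log2 ratio of Krt2 in Follicular went from -1.15 to 0.43. In KC_Four Krt16 went from 1.14 to -0.13, Krt6a from -1.65 to -0.61 and Krt10 from -1.07 to -0.91, and Krt17 went from -1.19 to 0.11 in Differentiated and from -2.27 to -0.81 in KC_Five.

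**Figure D5:**
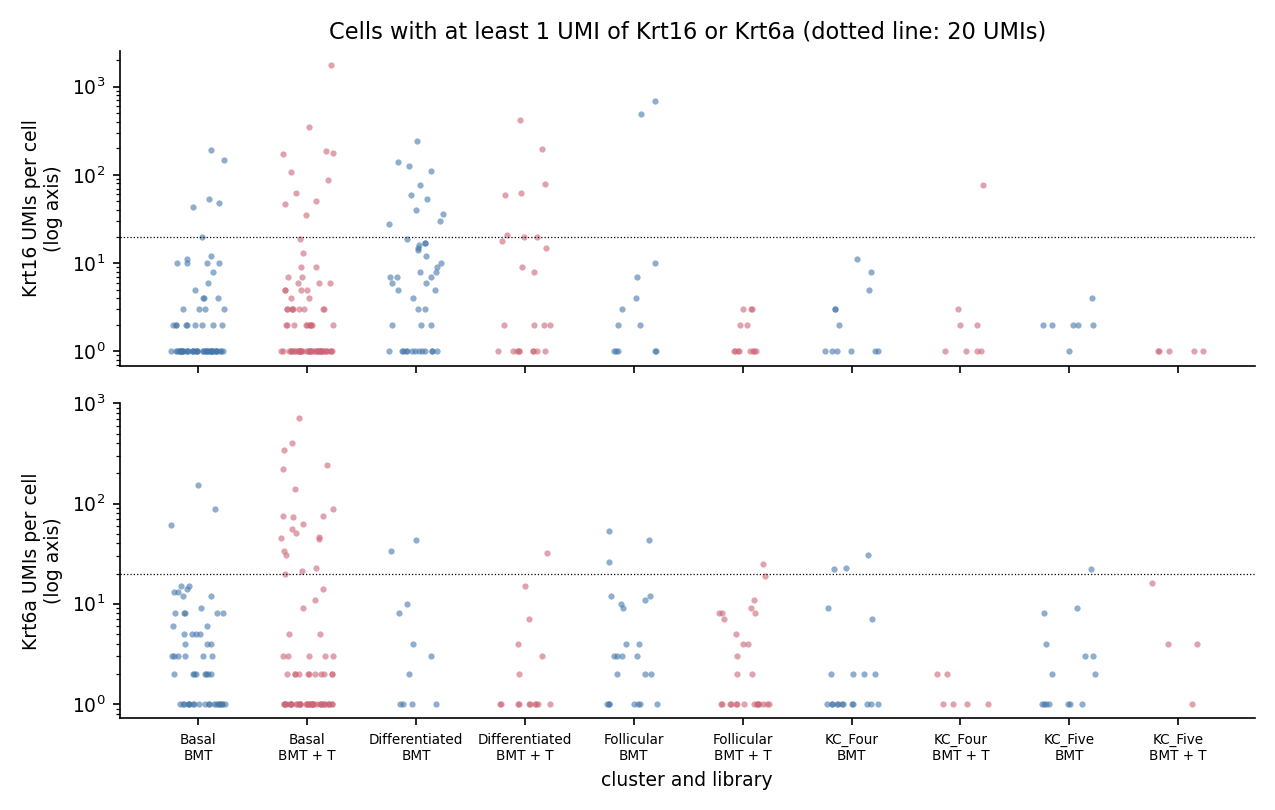
Krt16 (top) and Krt6a (bottom) UMIs of each cell that had at least 1 (y axis, log), by cluster and library (x axis), with a dotted line at 20 UMIs. Basal cells of BMT + T cells include 21 at or above the line for Krt6a, against 3 in BMT, and the 2 highest Follicular cells for Krt16 are both from BMT.

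Counted by cell, at least 20 UMIs of Krt6a were found in 21 of 1712 Basal cells of BMT + T cells (1.23%, 95% exact interval 0.761 to 1.87) and in 3 of 1684 of BMT (0.178%, 0.0368 to 0.520). For Krt16 these were 11 (0.643%, 0.321 to 1.15) and 6 cells (0.356%, 0.131 to 0.774), with overlapping intervals, and in Differentiated 8 of 353 and 11 of 493. The cut at 20 UMIs was set after the values were seen, and each label is 1 library. Basal cells past the cut for either gene, 22 and 7, were also low in Krt15. Of them 19 and 6 had fewer than 5 Krt15 UMIs, against 341 of 1690 and 369 of 1677 other Basal cells, although their median depth was higher, 15112 and 14126 against 8204 and 8047 UMIs. Their median Krt14 level, 395 and 392, was close to the 378 and 395 of the others.

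A list of 14 genes around the filaments held mostly proteins that link keratins to each other and to cell junctions, and vimentin, itself a filament protein of mesenchymal cells. Of these 10 reached the minimum level and 3 were led at least 2-fold (4.21% of all genes were), Pkp1, a desmosomal plakophilin, and Evpl (envoplakin) by Differentiated and Vim, the vimentin gene, by Follicular. Of 23 genes known to regulate keratinocyte genes 17 reached it, and 2 were led, Cebpb and Sox9, both by Follicular. Trp63, the master regulator of stratified epithelia, was led by none. Between labels the lists had median log2 ratios of 0.00 and 0.05, and 0 of their 10 and 17 genes were past 2-fold, where 0.425% of all genes were, so the count says nothing about the lists. Of the other lists, 1 of 4 hair bulge genes (Sox9) and 2 of 6 sebaceous genes reached the minimum level. All of these were led by Follicular, where 1.38% of all genes of that level were. The other members of these lists fell below that level and were not compared.

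Genes with the most similar pattern were sought over the 10 combinations of cluster and library among 1557 other genes of at least 1 per 10000, by Pearson correlation of log2 levels. The points share libraries and cluster borders, so the values rank genes and test nothing. For Krt14 they were Igfbp7 (0.982), Bcam (0.973), Il1r2, S100a13 and Adss. For Krt10 they were Mt4 (0.982), Pof1b (0.973), Perp, Dsg1a and Jup, the last 3 known as parts or partners of desmosomes. For Krt79 they were Emb (0.988), Defb6 (0.987), Mgst1, Adh7 and Aplp2, and for Krt17 Fis1 (0.968), C1qtnf12 (0.964), Aldh3a1, Emb and Defb6.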

How the data were processed

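Single cells were captured with the 10x Chromium 5′ kit. The authors processed reads with kallisto, bustools and Seurat (build GRCm38 per the labels, tool versions not given in the sources used here), removed cells with under 500 genes or over 20% mitochondrial reads and likely doublets (DoubletFinder), and clustered with the Leiden algorithm. No doublets were looked for again, and 1 keratinocyte lay above 20% in the deposited mitochondrial column, which is in percent. The deposited values are natural logs (ln) of 1 plus UMIs per 10000. After undoing the log, 100% of 15311900 values were whole UMI counts within 0.001, so counts and depths were recovered. All 47 keratins matched RefSeq. Stretches shared between keratin transcripts were counted in GENCODE transcripts, not in the index the authors used.

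Counts were summed per cluster and library. Genes of at least 0.1 per 10000 were compared, with a lead called at 2-fold over the next cluster in both libraries and a label difference at 2-fold on log2(level + 0.1). Named are all keratins of that level, lower ones by group or where a cell held at least 5 UMIs, the list genes that passed a rule (at most 4 per list), defining markers of other cell types, and the 5 genes nearest in pattern. Trp63, Lrig1 and Plet1 were named after their values were seen. Members and lists were chosen with earlier results of these data known. Intervals are exact (Poisson, Clopper-Pearson, 95%). A count of 0 allows up to 3 counts. The calling rules were tested on simulated summed counts. These had counting error only and no spread between cells, so how often a few cells make a call was not tested. Alternatives were the mean over cells, other denominators, filters, pseudocounts and depth ranges. Python 3.11.15, NumPy 2.4.6, SciPy 1.17.1 and pandas 2.3.3 were used.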

Additional observations from a re-analysis of the deposited data

Results flagged for a closer look

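Between the labels, 3 keratins were past 2-fold in opposite directions in different clusters (log2 ratio, BMT + T cells over BMT). Krt16 was at 2.02 in Basal and 1.14 in KC_Four but at -4.67 in Follicular. Krt6a was at 2.13 in Basal and -1.65 in KC_Four. Krt6b was at 2.05 in Basal and -2.67 in Follicular. The difference between clusters was not tested, because each label is 1 library. Without the 5 cells with the most UMIs of each gene, Krt16 was at 1.13, -0.13 and -0.12 in Basal, KC_Four and Follicular, Krt6a at 1.66 and -0.61 in Basal and KC_Four, and Krt6b at 0.06 and 0 in Basal and Follicular. In these clusters none of the 3 keratins was then past 2-fold in opposite directions. In Differentiated, however, Krt16 went from 0.191 to -1.14 without those cells. It was then past 2-fold lower there and past 2-fold higher in Basal.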

How the results depend on the processing

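No paired analysis was possible because each label is 1 keratinocyte library. The count of keratins led by 1 cluster, 6, became 14 without the filter on low values. Those added lay below 0.1 per 10000, with at most 309 UMIs each. The count was 5 with a filter at 1 per 10000 and 7 without the 5 cells with the most UMIs. The share of all genes led is not given for these settings, nor is the share past 2-fold between labels for the settings below. For keratins past 2-fold over all keratinocytes (2), the mean over cells, the filter at 1 per 10000, a pseudocount of 1, equal cluster weights and leaving out the 5 cells with the most UMIs gave 0, and cells of 5000 to 15000 UMIs gave 1. In Basal (3), the mean over cells and that depth range gave 1. In Differentiated (1), the mean over cells, the filter at 1 and a pseudocount of 1 gave 0. A pseudocount of 0.01 gave 2. Leaving out the 5 cells also gave 2, but Krt17 was no longer among them. These were Krt16 (-1.14) and Krt24 (-1.01), both lower in BMT + T cells. In Follicular (3), a pseudocount of 1 gave 1 and leaving out the 5 cells 0. In KC_Four (3), the filter at 1 and the depth range gave 1, and a pseudocount of 1 and leaving out the 5 cells 0. The keratin past 2-fold in the depth range was Krt17, which was not among the 3. Its log2 ratio turned from 0.822 over all KC_Four cells to -2.02 in that range. In KC_Five (1), the depth range and leaving out the 5 cells gave 0. Leaving out cells was chosen after seeing the data. Among the keratins past 2-fold, signs turned for Krt17 in Differentiated (1.18 in the depth range, 0.11 without the 5 cells) and Krt2 in Follicular (0.43 without them). They also turned for Krt10 in KC_Four (0.0409 in the depth range) and Krt16 in KC_Four (-0.13 without the 5 cells). Krt16 in Differentiated, not past 2-fold at first, turned from 0.191 to -0.0410 in the depth range and -1.14 without the 5 cells. The cause was not tested.

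The keratin share of UMIs kept its order of clusters. As the mean over cells it was 6.39% (Basal, BMT), 4.34% (Differentiated, BMT + T cells), 3.21% and 3.27% (Follicular, BMT and BMT + T cells), 5.01% (KC_Four, BMT) and 5.57% and 5.64% over all cells. In the depth range it was 6.47% (Basal, BMT), 4.26% (Differentiated, BMT), 3.41% and 3.37% (Follicular), 4.88% and 4.90% (KC_Four), 5.63% and 5.58% (KC_Five) and 5.64% in both libraries over all cells. Cells with Krt79 and Krt17 fell to 15.4% of Follicular cells (BMT + T cells) at 2 UMIs of each. Depth limits the keratins below 0.1 per 10000, whose levels in the smaller clusters rest on a few UMIs.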

Other observations

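Keratin RNA was also found in the sorted myeloid cells. In the host CD11b+MHCII+ library, labelled BMT, 42 of 781 cells had at least 100 Krt14 UMIs and held 30522 of them, with 19722 of Krt5 and 4039 of Krt15. The other 739 cells held 903, 472 and 240. The split was made on Krt14, so its own direction was fixed by it. In the 739 cells Krt7 was seen in 12.3% and had 120 UMIs, with 22 in the 42 Krt14-rich cells. Krt17 had 63 and 23, Krt26 28 and 0, Krt79 22 and 0 and Krt6b 16 and 0. Much of this lay in single cells of the 739, with up to 36 Krt17, 16 Krt79 and 12 Krt6b UMIs in a cell. Krt79 was seen in 6 host cells and Krt6b in 2, while Krt26 was seen in 27 with at most 2 UMIs each. In the 4 donor libraries Krt14 was seen in 8.85 to 21.7% of cells, at 0.0964 to 0.529 per 10000, and 3 cells in all had at least 100 UMIs of it. Of the keratins, 9 are listed for the donor cells and 21 for the host cells.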
